A study of Mus musculus with 84 samples.

Results

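Excitatory and inhibitory synapses are held together by different scaffold proteins on the postsynaptic side, and 10 genes for such proteins are described here in 84 single neurons of mouse prefrontal cortex. The genes were chosen by symbol: Baiap2, Dlg2, Dlg3, Dlg4, Dlgap1, Shank1, Shank2, Shank3, Homer1 and Gphn. All 10 were found among the 19685 genes of the count table. The neurons came from acute slices of untreated C57/BL6/N mice, were collected one by one through a patch-clamp pipette, and had their RNA amplified by the aRNA procedure, a linear amplification through in vitro transcription of polyadenylated RNA. By their titles 25 neurons carry the letter F and 59 the letter P. The title of the series speaks of pyramidal and fast-spiking cells, which begin with these letters. Since the labels do not say what F and P stand for, the letters are kept here as names. No age, sex or animal is given for any cell. Each group therefore counted as 1 sample, and the comparison below is a description with no test and no p-value. Intervals are 95% intervals that cover the draw of cells (for shares of cells) or counting error only (for pooled counts), never differences between animals.

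At an excitatory synapse, membrane-associated guanylate kinases of the PSD-95 family (the products of Dlg4, Dlg2 and Dlg3) bind the tails of NMDA receptors and sit directly under the membrane. SAPAP proteins, such as that of Dlgap1, tie this layer to the deeper Shank proteins, which in turn bind Homer proteins and actin regulators such as Baiap2. At an inhibitory synapse, gephyrin, the product of Gphn, forms the lattice that holds GABA-A and glycine receptors. Pyramidal cells receive most excitatory input on dendritic spines, whereas the dendrites of fast-spiking interneurons are largely smooth and receive it on the shaft.

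Several properties of the libraries bear on every value below. Total counts ran from 36594 to 12043599 per F cell (median 680044) and from 19802 to 16251918 per P cell (median 2706396), so a gene is found less easily in F cells. Cells were therefore also thinned at random to 86539 counts each, which 22 F and 53 P cells had. A set of 16 F libraries, F13 to F28, is taken here to share reads of a few genes. It was recognised by Klhl18, Celsr1 and Pno1, all 3 of them at 2 counts or more. This rule was applied to F cells only, and no label names the set. Counts per gene cannot by themselves show that reads are shared, so the phrase serves below as a name. The other 9 F libraries are given apart where it matters. Libraries F11 and F12 were the most alike of 3486 pairs of cells (Pearson r of log2(CPM + 1) 0.961 over measured genes, next pair 0.518, median pair 0.155), and an alternative averaged them. At 10 CPM (counts per 1000000 counts of the cell) or more, GABAergic markers outnumbered glutamatergic ones in 15 of 25 F cells, and the reverse was true of 47 of 59 P cells. All 9 measured GABAergic markers were at least 2-fold higher in F cells, and 9 of 11 glutamatergic markers at least 2-fold lower. Of all measured genes, 18.5% were at least 2-fold higher and 46.4% lower. In 6 F cells (F13, F17, F18, F20, F23 and F26) and 4 P cells (P15, P57, P67 and P75) the markers went against the label. Mean Gad1, which makes GABA, was 1460.3 CPM over F cells, against 128 CPM over P cells. Mean Slc17a7, a vesicular glutamate transporter, was 12.8 and 202 CPM. The calcium buffer Pvalb, a usual marker of fast-spiking cells, had counts in 2 F and 5 P cells.

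The promoters of 8 of the 10 genes were matched in RefSeq (GRCm38.p6, the assembly called mm10), as 15 windows of the 250 bases before an annotated start. Shown are a window each of Homer1 and Shank3, both lower in F cells on the mean, and of Dlgap1, found at a like share of F and P cells. No part of these 3 windows lies in an annotated exon of its gene. The Baiap2 window lies within an annotated exon and is not shown. Capitals mark every match to TGACG (the core of the cAMP response element TGACGTCA, which contains it), the GC box GGGCGG or the TATA box TATAAA, on either strand.
Homer1, chr13:93303507-93303756, plus strand: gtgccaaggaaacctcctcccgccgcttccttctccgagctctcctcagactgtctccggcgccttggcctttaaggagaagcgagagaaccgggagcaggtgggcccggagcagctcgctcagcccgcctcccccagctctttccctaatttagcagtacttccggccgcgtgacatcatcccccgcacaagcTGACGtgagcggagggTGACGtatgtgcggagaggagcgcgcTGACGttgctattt
Shank3, chr15:89499358-89499607, plus strand: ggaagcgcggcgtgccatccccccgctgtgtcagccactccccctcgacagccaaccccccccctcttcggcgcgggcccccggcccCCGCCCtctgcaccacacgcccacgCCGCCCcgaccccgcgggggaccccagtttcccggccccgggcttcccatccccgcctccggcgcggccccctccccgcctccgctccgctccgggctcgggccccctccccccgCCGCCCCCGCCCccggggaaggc
Dlgap1, chr17:69968823-69969072, plus strand: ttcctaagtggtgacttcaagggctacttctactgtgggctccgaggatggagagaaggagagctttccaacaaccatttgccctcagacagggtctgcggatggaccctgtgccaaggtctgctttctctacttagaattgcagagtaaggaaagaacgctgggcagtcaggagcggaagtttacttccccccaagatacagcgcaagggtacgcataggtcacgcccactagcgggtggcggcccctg
The Homer1 window shown held 3 matches to TGACG, a sequence present in 17.8% of the 32851 RefSeq windows of this length, and no full TGACGTCA, present in 1.55%. Another Homer1 window, 93307784 to 93308033, is not shown. It also lies outside annotated exons of the gene, held none of these matches and was 46.8% G or C. The Shank3 window held 4 matches to the GC box, present in 32.7% of windows, and was 82.4% G or C against a median of 52.4%. The Dlgap1 window held none of these letters, and TATAAA, present in 12.4% of all windows, was in none of the 3. A match describes the letters only.

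Mean CPM of Baiap2 and Homer1 was far lower in F cells, and that of Shank3 was also lower. The PSD-95 family, Dlgap1 and Gphn were present in both groups at levels that overlapped widely. Over all F and P pairings, the P cell was higher in 85.0% for Baiap2 and 66.8% for Homer1 (ties split evenly). Of the 9 members with a count in at least 8 cells (Shank2 had one in 6), 3 had a mean CPM at least 2-fold lower in F cells, where 46.4% of 11324 genes so measured did. In the other direction 1 member, Dlg4, was at least 2-fold higher, where 18.5% of genes were. Lower by any amount were 8 members and 65.3% of all genes. In thinned cells 4 members were at least 2-fold lower (46.9% of all genes) and 1 higher (18.7% of all genes), the fourth being Shank1, which only 3 of 53 P cells and 0 of 22 F cells then held. Folds are (mean F + 1)/(mean P + 1) in CPM, so a negative log2 fold means a lower level in F cells, and the median was -0.52 for the members and -0.79 for all measured genes. Which of these medians was lower depended on the setting. That of the members was the lower with trimmed means (-0.62 against 0.0), with the difference of mean log2(CPM + 1) (-0.26 against -0.15), with a pseudocount of 10 CPM (-0.52 against -0.32) and under bcl2fastq 1.8.4 (-1.46 against -0.32). With TMMwsp scaling factors it was 0.55 against -0.82.

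**Figure D1:**
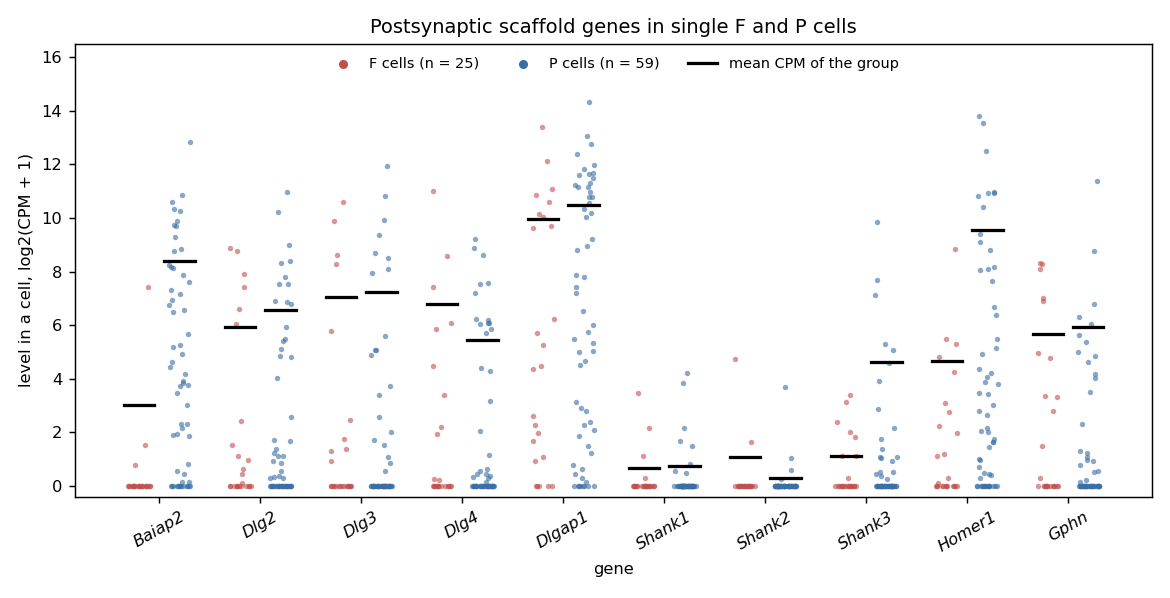
Level of each scaffold gene in every cell, as log2(CPM + 1) on the vertical axis. Points are cells (25 F, 59 P) and black lines the log2(mean CPM + 1) of each group. Baiap2 is at 0 in 22 of 25 F cells but spread up to 7243 CPM in P cells, while Dlgap1 fills the same range in both groups.

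Baiap2 encodes an I-BAR domain protein, also called IRSp53, that couples the small GTPases Rac and Cdc42 to actin in spines and binds PSD-95 and Shank. The gene (ENSMUSG00000025372.16) lies on the plus strand of GRCm38 chromosome 11, 119942763 to 120006782, and no other annotated gene overlaps it. In F cells its lowest and median levels were 0 CPM and its highest 173 CPM. In P cells the lowest was 0, the median 14.2 CPM (quartiles 0.242 and 212 CPM) and the highest 7243 CPM. Only 3 F cells held a count, F12 with 5, F2 with 4 and F15 with 60, and F15 alone gave 98.5% of the F sum. A count was found in 12% of F cells (95% interval 2.55 to 31.2%) and in 78.0% of P cells (65.3 to 87.7%), and 20 P cells but 1 F cell reached 100 CPM. The groups overlapped at 0, where 13 P cells lay with most F cells.

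Mean Baiap2 was 7.03 CPM (SD over cells 34.6) over F cells, against 333 CPM (SD 1004) over P cells, a log2 fold of -5.38. This placed it lower than all but 3.85% of measured genes. The highest P cell, P45, was a shallow library of 34239 counts with 248 counts of Baiap2, and without it the log2 fold was -4.74. Without F15 it was -8.24, and without the 16 F libraries that share reads -8.02. At the common depth Baiap2 was found in 1 of 22 F cells (4.55%, 0.115 to 22.8%), against 32 of 53 P cells (60.4%, 46.0 to 73.5%). The basecaller version is the only batch label given. A count was found in 1 of 3 F and 5 of 6 P cells under bcl2fastq 1.8.4 (log2 fold -4.33), and in 2 of 22 and 41 of 53 under the newer version (-5.36).

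**Figure D2:**
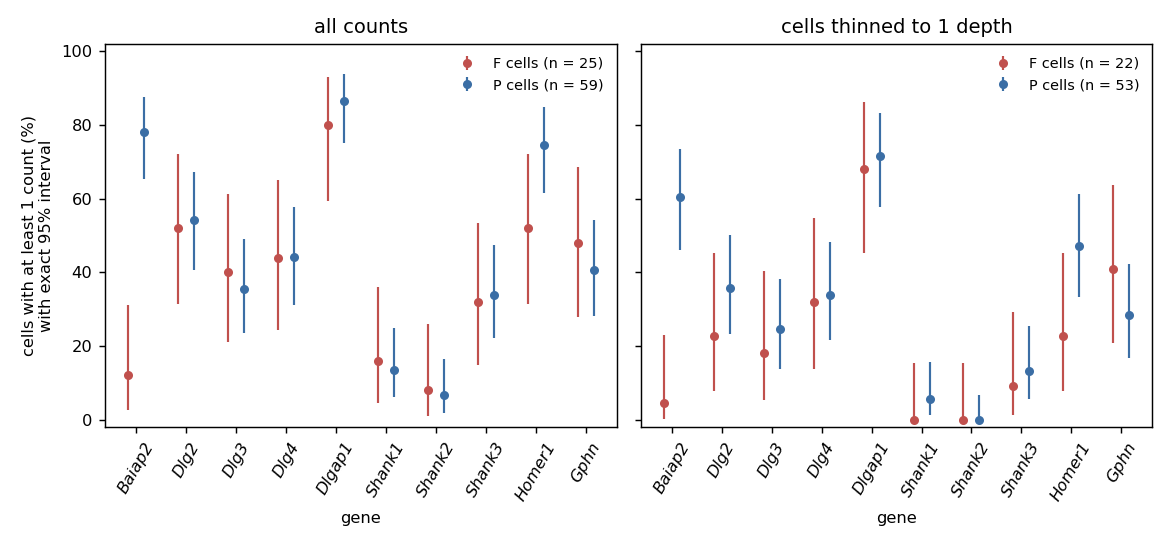
Percent of F and P cells with at least 1 count of each gene, with exact 95% intervals over cells, at full depth (left) and with every cell thinned to 86539 counts (right). For Baiap2 the intervals of the 2 groups are apart in both panels, whereas those of every other gene overlap in both.

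Homer1 encodes a scaffold whose EVH1 domain binds group I metabotropic glutamate receptors and Shank. The long forms join through a coiled coil, and a short form, Homer1a, is induced by activity and lacks it. Counts per gene symbol do not separate these forms. The gene (ENSMUSG00000007617.18) lies on the plus strand of chromosome 13, 93299635 to 93405129. F cells ran from 0 over a median of 0.083 CPM to 457 CPM, and P cells from 0 over 5.22 CPM (quartiles 0.118 and 150 CPM) to 14397 CPM. A count was found in 13 of 25 F cells (52%, 31.3 to 72.2%), against 44 of 59 P cells (74.6%, 61.6 to 85.0%), so the groups differed less in whether the gene was found than in how high it went. A level of 100 CPM was reached by 1 F cell, F16, and by 16 P cells.

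Mean Homer1 was 24.3 CPM (SD 91.0) over F cells, against 751 CPM (SD 2514) over P cells, a log2 fold of -4.89. The P mean rested on a few cells, with 32.5% of the sum in P59 (14397 CPM) and the next highest level, 11872 CPM, in P15, a P cell with more GABAergic than glutamatergic markers. The log2 fold was -4.35 without P59 and -6.70 without F16. Without the 10 cells whose markers went against their label it was -4.21, an alternative added once the values were known. At the common depth Homer1 was found in 5 of 22 F cells (22.7%, 7.82 to 45.4%), against 25 of 53 P cells (47.2%, 33.3 to 61.4%). All 9 F libraries outside the set that shares reads held a count, but the highest of them was 43.96 CPM. Their median was 3.66 CPM, against 5.22 CPM over P cells, and their upper quartile 27.2 CPM, against 150 CPM. Baiap2 and Homer1 were found together in 40 of 59 P cells and 3 of 25 F cells. At the common depth this was so in 18 of 53 and 0 of 22, where 0 of 22 allows a share of up to 13.6% by the limit of 3 counts (3 of 22 cells). The joint counts in F cells could not pass those of Baiap2, found in 3 F cells, or 1 at the common depth. They therefore say little of whether the 2 genes occur together.

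The Shank family was sparse. Shank proteins are large scaffolds with ankyrin repeats, a PDZ domain that binds SAPAP, and a proline-rich stretch that binds Homer. Shank3 (ENSMUSG00000022623.16, chromosome 15, 89499623 to 89560261) was found in 8 of 25 F cells (32%, 14.9 to 53.5%), against 20 of 59 P cells (33.9%, 22.1 to 47.4%). Its median was 0 CPM in each group, and its highest level was 9.49 CPM over F cells, against 923 CPM over P cells. Mean Shank3 was 1.19 CPM over F cells, against 23.7 CPM over P cells, a log2 fold of -3.50. A level of 100 CPM was passed by 3 P cells, of which P67 alone, another P cell with more GABAergic markers, held 66.03% of the sum. Without P67 the log2 fold was -2.07, and with means trimmed by 20% at each end it was 0.016, with the direction turned. Cells with a count were thus about as common in both groups, and the few high values were in P cells.

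Shank1 (ENSMUSG00000038738.15, chromosome 7, 44310253 to 44360572) was found in 4 F and 8 P cells and reached 10.1 and 17.7 CPM at most. Its means were 0.597 and 0.676 CPM. Shank2 (ENSMUSG00000037541.21, chromosome 7, 144001928 to 144424494) was found in 2 F and 4 P cells, with 11 counts over all F cells (Poisson interval 5.49 to 19.7) and 6 over all P cells (2.20 to 13.1). Neither gene allowed a comparison at this depth. At the common depth Shank2 was found in no cell, which by the same limit of 3 allows up to 13.6% of F and 5.66% of P cells to have one (exact intervals reach 15.4 and 6.72%), and does not limit the cells that express it. Shank1, Shank3, Dlgap1 and Gphn each share exon bases with 1 gene on the opposite strand. Whether the counting used strand is not stated, so reads of such partners over the shared bases cannot be told apart. Dlg2 shares exon bases with 2 genes on its own strand, where strand would not separate them.

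Dlgap1 was the most widely found member in both groups. Its product, SAPAP1 or GKAP, binds the guanylate kinase domain of PSD-95 and the PDZ domain of Shank. The gene (ENSMUSG00000003279.17) lies on chromosome 17, 69969073 to 70821413. F cells ran from 0 over a median of 21.3 CPM (quartiles 1.11 and 1047 CPM) to 10756 CPM, and P cells from 0 over 63.95 CPM (quartiles 2.21 and 1894 CPM) to 20391 CPM. A count was found in 20 of 25 F cells (80%, 59.3 to 93.2%), against 51 of 59 P cells (86.4%, 75.02 to 93.96%). The groups covered nearly the same range. Mean levels of 996 and 1427 CPM gave a log2 fold of -0.52, and in 56.7% of the 1475 possible F and P pairings the P cell had the higher level (ties split evenly). The log2 fold moved to -1.27 without F17, a cell with more glutamatergic markers, and to -0.14 without P39. It was positive with pooled counts (0.18), with TMMwsp factors (0.67) and under bcl2fastq 1.8.4 (0.68). At the common depth Dlgap1 was found in 15 of 22 and 38 of 53 cells, 68.2% and 71.7%.

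The PSD-95 family was found in like shares of both groups. Dlg4 (ENSMUSG00000020886.17, chromosome 11, 70016942 to 70047522), which encodes PSD-95 itself, was found in 11 of 25 F cells (44%, 24.4 to 65.1%), against 26 of 59 P cells (44.1%, 31.2 to 57.6%). Its median was 0 CPM in both, and the F cell had the higher level in 50.1% of pairings. Mean Dlg4 was 110 CPM over F cells, against 42.1 CPM over P cells, a log2 fold of 1.37. F14, at 2047 CPM, held 74.1% of the F sum, and without it the log2 fold was -0.48. It was also negative with trimmed means (-0.62) and under bcl2fastq 1.8.4 (-1.46), so no direction held for Dlg4.

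Dlg2 encodes PSD-93, which also anchors potassium channels. The gene (ENSMUSG00000052572.17, chromosome 7, 90476672 to 92449247) was found in 13 of 25 F cells (52%, 31.3 to 72.2%), against 32 of 59 P cells (54.2%, 40.8 to 67.3%). F cells ran from 0 over a median of 0.083 CPM to 475 CPM, and P cells from 0 over 0.259 CPM to 2020 CPM. Means were 59.8 and 94.6 CPM, and the log2 fold of -0.65 was -0.037 without P26 and 0.68 with TMMwsp factors. Dlg3 encodes SAP102, the family member prominent in young neurons, and lies on chromosome X (ENSMUSG00000000881.12, 100767722 to 100818410). It was found in 10 of 25 F cells (40%, 21.1 to 61.3%), against 21 of 59 P cells (35.6%, 23.6 to 49.1%), with medians of 0 CPM and highest levels of 1545 CPM in F7 and 3987 CPM in P39.

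Mean Dlg3 was 130 CPM over F cells, against 151 CPM over P cells, a log2 fold of -0.21. Within the F cells it was uneven, at 3.901 CPM in the 16 libraries that share reads and 355 CPM in the other 9. With those 9 as the only F cells the log2 fold was 1.23. With counts pooled over cells the ratio of F to P was 3.63 (3.58 to 3.69), and 27037 of the 27043 F counts lay in those 9 libraries, whose median total was 2707087. In all 9 libraries of bcl2fastq 1.8.4 Dlg3 was found, from 1.63 to 949 CPM in 3 F cells and from 0.808 to 961 CPM in 6 P cells.

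Gephyrin also binds microtubules and the cytoskeleton and takes part in molybdenum cofactor synthesis. Gphn (ENSMUSG00000047454.12, chromosome 12, 78226379 to 78684772) was found in 12 of 25 F cells (48%, 27.8 to 68.7%), against 24 of 59 P cells (40.7%, 28.1 to 54.3%). Both medians were 0 CPM, the upper quartile was 26.6 CPM over F cells, against 1.40 CPM over P cells, and the highest levels were 322 CPM and 2669 CPM. A level of 100 CPM was reached by 5 F and 3 P cells. Means were 49.4 and 60.8 CPM, a log2 fold of -0.29, yet P37 alone held 74.4% of the P sum and without it the log2 fold was 1.58. With trimmed means it was 1.71. The 2 highest F values, 308 CPM in F11 and 322 CPM in F12, came from the most alike pair of libraries, and with that pair averaged the log2 fold was -0.65.

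**Figure D3:**
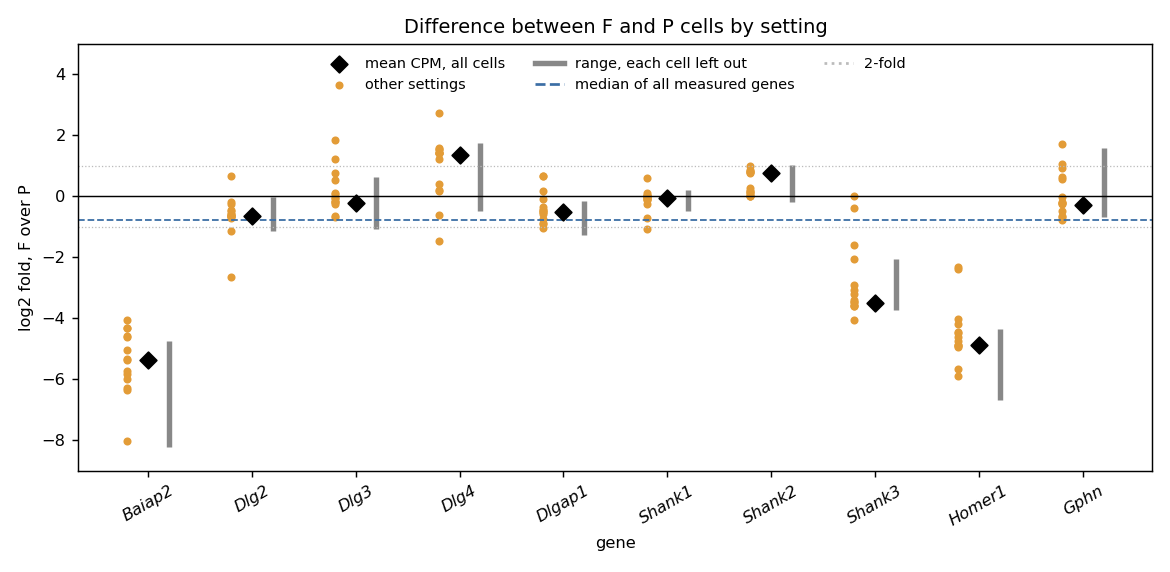
Log2 fold of F over P for each gene. Diamonds are from mean CPM of all cells, orange points from 14 other settings, grey bars span the values with each cell left out in turn, the dashed line marks the median of all measured genes at -0.79 and dotted lines a 2-fold difference. Baiap2 and Homer1 stay beyond the 2-fold line under all of these settings. Dlg2, Dlg3, Dlg4, Dlgap1, Shank1, Shank3 and Gphn fall on both sides of 0.

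Within a cell, the 10 genes can be set against each other without the cell total. Among cells with at least 1 count of a member (24 F, 58 P), Dlgap1 took the largest mean share of the members' counts, 48.2% (SD 39.5) in F cells and 41.1% (SD 37.99) in P cells. Baiap2 took 0.569% (SD 2.68) in F cells and 18.2% (SD 29.9) in P cells, and Homer1 3.87% (SD 9.88) and 17.2% (SD 30.4). Gphn took 18.2% (SD 31.6) in F cells and 2.88% (SD 12.8) in P cells, but its median share in F cells was 0.0017%, and with counts pooled over cells it took 1.94% and 1.01%. Gphn was the member with the most counts in 6 of 24 F cells, against 1 of 58 P cells, whereas Baiap2 led 11 P cells and Homer1 9, and neither led any F cell. The 6 F cells led by Gphn were the alike pair F11 and F12, with 552 and 871 Gphn counts, and F8, F23, F27 and F28, with only 4, 2, 2 and 10. These shares and leads were not corrected for gene length. Per kilobase of merged exons, Gphn led 6 F and 2 P cells, Baiap2 0 and 16, and Homer1 1 and 11. Dlg4 took 9.43% (SD 24.9) in F cells and 2.70% (SD 7.91) in P cells, but 1.41% in the 9 F libraries outside the set that shares reads.

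**Figure D4:**
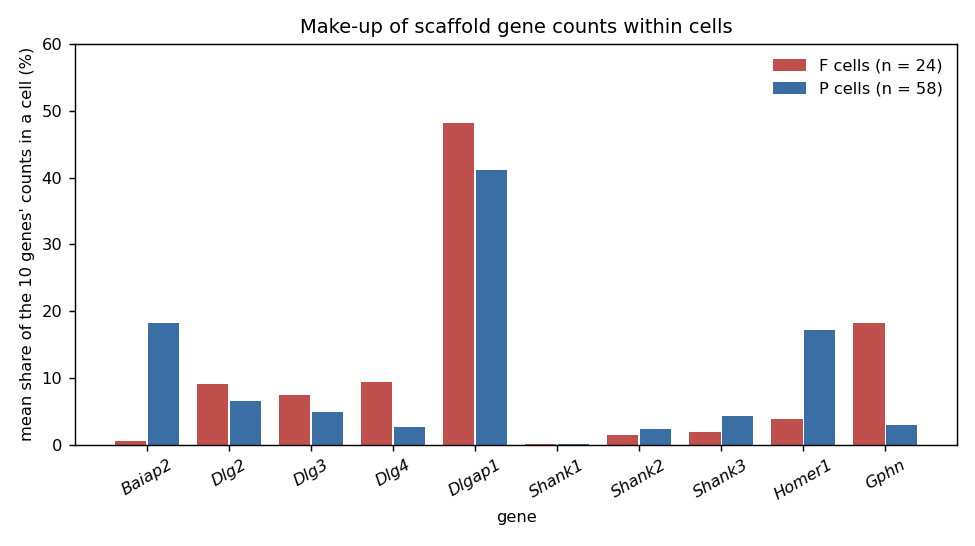
Mean share of each gene in the summed counts of the 10 genes within a cell, in percent, over 24 F and 58 P cells with a member count; no error bars are drawn, and the SDs are as large as or larger than most means. Baiap2 and Homer1 make up more of the P bars, and Gphn and Dlg4 more of the F bars, though for Dlg4 the direction turns without the F libraries that share reads (1.41% against 2.70%).

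In most cells 1 member dominated, with a median share for the leading member of 79.0% in F cells and 80.3% in P cells. The median number of members found was 3 (quartiles 2 and 6) for F and 5 (quartiles 3 and 6) for P cells. It was 2 in the 16 F libraries that share reads and 6 in the other 9, which are deeper. At the common depth the medians were 2 for F and 3 for P cells, and 3 for the 9 other F libraries. The number of members moved with the total count of the cell, with a Spearman correlation of 0.85 over 25 F cells and 0.61 over 59 P cells. The summed level of all 10 genes had a median of 362 CPM in F cells (0 to 10763) and 1440 CPM in P cells (0 to 24413). Within the F cells this median was 143 CPM in the 16 libraries that share reads. In the other 9 it was 1899.9 CPM, above that of P cells.

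Per kilobase of merged exons, mean levels in P cells ran in the order Dlgap1 (79.8 CPM per kilobase), Baiap2 (66.6), Homer1 (62.7), Dlg3 (25.8), Gphn (16.2), Dlg2 (5.81), Dlg4 (3.17), Shank3 (2.58), Shank1 (0.0643) and Shank2 (0.0217). In F cells the order was Dlgap1 (55.7 CPM per kilobase), Dlg3 (22.3), Gphn (13.2), Dlg4 (8.34), Dlg2 (3.67), Homer1 (2.03), Baiap2 (1.41), Shank3 (0.129), Shank2 (0.103) and Shank1 (0.0567). Every member ranged down to 0 in each group, so neighbours in either order overlapped over cells. Baiap2 stood at rank 2 in P cells, or rank 3 without P45 (42.8 CPM per kilobase), and at rank 7 in F cells, or rank 10 without F15 (0.0215). Merged exons count every annotated end of a gene, which lowers the value of genes with long alternative ends. Whether counts scale with exon length after this amplification was not tested, so the orders and leads per kilobase depend on that assumption.

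Over the 53 P cells at the common depth, no 2 members followed each other closely. Among members found in at least 10 of these cells, the highest Spearman correlation was 0.42, between Dlg2 and Dlg4, and Baiap2 and Homer1 had 0.099. Dlgap1 had a correlation of 0.090 with Baiap2 and -0.10 with Homer1. Of 409 genes found in at least 50% of these cells, those most like Baiap2 were Kalrn, a spine guanine nucleotide exchange factor, Egr1, an activity-induced transcription factor, and Mtpn, each with a correlation of 0.44 where the median gene had 0.12. Those most like Dlgap1 were Myt1l (0.63), a neuronal transcription factor, Prkar1a (0.58), a regulatory subunit of protein kinase A, and Grm5 (0.54), a group I metabotropic glutamate receptor, where the median gene had 0.20. These cells share the amplification procedure and the thinned depth, and the values are descriptions without a test.

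Other genes of the postsynapse were taken as 5 lists with 86 genes in the table, written with earlier results of these data known. Of 84 measured, 40 (47.6%) were at least 2-fold lower in F cells, near the 46.4% of all genes, and 12 (14.3%) at least 2-fold higher, against 18.5%. Their median log2 fold was -0.92. Among other membrane-associated guanylate kinases and their linkers, 12 of 20 were at least 2-fold lower and 1 higher, with a median of -1.59, and 5 were lower with trimmed means (median -0.20). Mean Dlg1, or SAP97, was 1.30 CPM over F cells, against 173 CPM over P cells, and it was found in 6 of 25 and 28 of 59. Magi2, a scaffold with PDZ and WW domains, averaged 0.363 and 78.7 CPM, and Cnksr2, which binds PSD-95, 1.34 and 51.8 CPM. The log2 fold of Dlg1 was -6.24, where Dlg2, Dlg3 and Dlg4 of its own family had -0.65, -0.21 and 1.37.

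**Figure D5:**
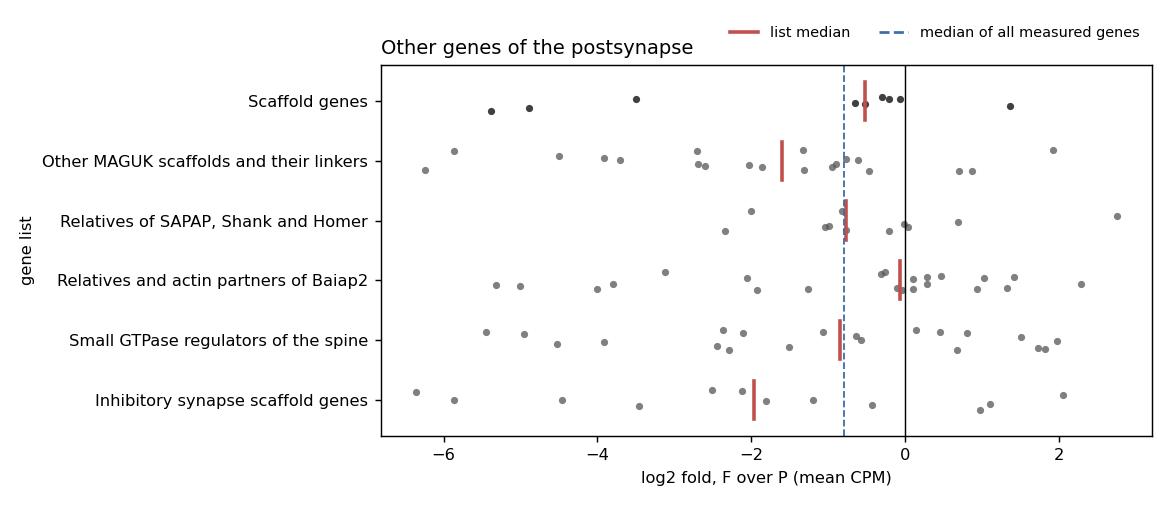
Log2 fold of F over P from mean CPM for the 9 measured scaffold genes and for 5 lists of other postsynaptic genes; points are genes, red bars list medians and the dashed line the median of all measured genes. The medians lie between -1.97 and -0.067, around the -0.79 of all genes.

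Among relatives of SAPAP, Shank and Homer, 3 of 11 were at least 2-fold lower in F cells and 1 higher (median -0.76). Of all measured genes, 46.4% were lower and 18.5% higher. Without the 16 F libraries that share reads, 3 of the 11 were lower and 3 higher (median 0.29). Homer2 averaged 10.1 and 55.1 CPM, a log2 fold of -2.34, and -1.11 without the 16 F libraries that share reads. Homer3 had -2.002, but P25 held 98.4% of its P sum and without that cell it had -0.057. Cttn, an actin-binding partner of Shank, had -1.04, and 0.18 without the 16 F libraries that share reads. Dbnl, another actin-binding partner, had 2.76, and 0.89 without F13.

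Of 22 relatives and actin partners of Baiap2, 8 were at least 2-fold lower in F cells and 4 higher, with a median of -0.067. All measured genes also went in both directions, with 46.4% lower, 18.5% higher and a median of -0.79. Without the 16 F libraries that share reads 5 were lower and 8 higher. Actn1, an actin crosslinker, averaged 5.41 and 256 CPM, Wasf1, a subunit of the WAVE complex that drives actin branching, 3.12 and 131 CPM, and Dbn1, the spine actin-binding protein drebrin, 9.48 and 167 CPM. Their log2 folds were -5.32, -5.00 and -4.00, the last being -1.65 without P14. Cyfip2, another WAVE subunit, was higher in F cells at 1749 and 357 CPM, but with a log2 fold of -0.83 without the 16 libraries that share reads. Abi1 (1.42) and Wasf3 (1.33) of the same complex each rested on 1 F cell and had -0.25 without F15 and -0.021 without F2.

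Of the small GTPase regulators of the spine, 10 of 20 were at least 2-fold lower in F cells and 4 higher. Of all measured genes, 46.4% were lower and 18.5% higher. The median of these regulators was -0.85, or -0.024 with pooled counts. Iqsec2, an Arf exchange factor bound to PSD-95, averaged 2.39 and 147 CPM, and Akap5, the anchor of protein kinase A at the postsynaptic membrane, 7.48 and 195 CPM. The log2 fold of Akap5 was -4.53, and -2.52 without P30. Sipa1l1, a Rap GTPase-activating protein also called SPAR, had a log2 fold of 1.82, and 0.59 without F12. Sipa1l2 had 1.73, and 0.83 without F6. Arhgap44 had 1.97, and -0.49 without F27.

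Of 12 measured genes of the inhibitory postsynapse and of gephyrin's other roles, 8 were at least 2-fold lower in F cells and 2 higher, where 46.4% and 18.5% of all genes were, with a median of -1.97. Without the 16 F libraries that share reads 6 were lower and 3 higher, with a median of -0.77, near the -0.75 of all genes. With pooled counts 5 were lower and 1 higher (median -0.66), and under bcl2fastq 1.8.4 4 were lower and 5 higher. Mocs2, an enzyme subunit of the molybdenum cofactor pathway, averaged 0.642 and 134 CPM in F and P cells, and Gabarap, a GABA-A receptor-associated protein, 9.40 and 228 CPM. Magi2, named above, is also on this list. Iqsec3, an Arf exchange factor that binds gephyrin, had a log2 fold of 2.06, of which F1 held 93.9% of the sum, and -1.50 without it. Pfn2, a profilin, was found in 16 of 25 and 51 of 59 cells and had 1.11, or 0.67 without F16.

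Glial markers also differed between the groups in mean CPM, though several of these differences rested on 1 cell. Of 7 measured astrocyte markers of 8 listed, 6 were at least 2-fold lower in F cells and 1 higher. For this and the other marker lists here, the shares over all measured genes are 46.4% lower and 18.5% higher. Aqp4, Gfap and Gja1 had 99.6, 94.7 and 88.9% of the P sum in P16. Without P16 their log2 folds were 1.11, 0.62 and 0.84. Slc1a2, Slc1a3 and Aldoc stayed lower without their highest cell (-1.38, -1.19 and -1.49). S100b, which was higher, had 96.9% of the F sum in F14 and a log2 fold of -2.47 without it. The summed level of the 8 astrocyte markers ran from 0 to 18170 CPM in F cells (median 42.5). In P cells it ran from 0 to 100000 CPM (median 555.2). Aldh1l1, the marker not measured, was at 0 in all F cells and found in only 3 P cells (mean 0.011 CPM). Oligodendrocyte markers had 3 of 7 measured lower and 3 higher, and medians of the summed level of 27.3 CPM over F cells, against 11.3 CPM over P cells. Microglial markers had 4 of 10 lower and 3 higher, and medians of 6.46 and 9.26 CPM. Of 3 measured endothelial and mural markers 2 were lower and 1 higher. Pecam1, not measured, was at 0 in all F cells and found in only 3 P cells (mean 0.342 CPM). The part of all these markers in the levels of the scaffold genes was not tested.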

How the data were processed

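The deposited table holds raw read counts per gene symbol for 84 cells, which the authors made. The submitters' processing notes name STAR 2.4.0, mm10 and, for basecalling, bcl2fastq 1.8.4 or 2.17. How reads were counted, with which annotation and whether by strand, is not given in the sources used here. Groups came from the titles. Counts were scaled to CPM by the cell total and averaged with equal weight per cell, and the fold used a pseudocount of 1 CPM. A gene found in 8 cells or more was called measured. Shares of cells have exact Clopper-Pearson intervals, summed counts exact Poisson intervals and pooled ratios exact conditional intervals. A floor of 3 counts gives the limit for 0 found. Total counts of 19802 to 16251918 per cell set the precision, and since reads carry no molecular identifiers, intervals and floors on counts cover counting error only. Thinning drew 86539 counts per cell (the 10th percentile of totals) without replacement and left out 3 F and 6 P cells.

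Gene models came from GENCODE M21 and promoters from RefSeq, both on GRCm38. Named genes were all 10 members; from each companion list up to 3 genes per direction with the largest log2 fold, at least 2-fold and with the same direction pooled and thinned; and, for members found in at least 50% of thinned P cells, the 3 genes of highest Spearman correlation. Of the genes so named, 1 is not reported here. The members, lists and rules were chosen with earlier results of these data known. The calculation of the fold was run on simulated counts. That run compared medians over sets of genes drawn with the same model of spread. It therefore does not bear on the fold of a single gene, or on one that rests on 1 cell. Alternatives were other averages, scalings (edgeR 4.0.16 TMMwsp), filters, pseudocounts, depth, batches and left-out libraries. Python 3.11.15 with scipy 1.17.1, and R 4.3.3, were used.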

Additional observations from a re-analysis of the deposited data

How the results depend on the processing

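Baiap2 and Homer1 were at least 2-fold lower in F cells under all 14 settings tried, with log2 folds from -8.02 to -4.07 and from -5.90 to -2.32. Shank3 was so in 12 of 14 and turned to 0.016 with trimmed means. Dlg4, higher in F cells on the mean, turned to -0.62 with trimmed means, -1.46 under bcl2fastq 1.8.4 and -0.48 without F14. The number of members at least 2-fold lower in F cells was 3, and 5 under bcl2fastq 1.8.4, where 3 F and 6 P cells remain. With pooled counts and with thinned cells the number was 4, and with the difference of mean log2(CPM + 1) it was 2. It was 3 to 4 with each cell left out. The number at least 2-fold higher was 1, and became 0 with the difference of mean log2(CPM + 1), 2 with TMMwsp factors, 0 under bcl2fastq 1.8.4, and 0 to 2 with each cell left out, where the log2 fold of Dlg4 ran from -0.48 to 1.73. With TMMwsp factors the split of members was 3 lower and 2 higher. Of the companion genes, 40 were lower and 12 higher. With the difference of mean log2(CPM + 1) these were 24 and 4, with trimmed means 28 and 7, and under bcl2fastq 1.8.4 27 and 28. With each cell left out they were 37 to 45 and 10 to 15. The median number of members found was 3 per F cell, and 8 under bcl2fastq 1.8.4 and 6 without the libraries that share reads. It was 5 per P cell, and 7.5 under bcl2fastq 1.8.4. The cause was not tested. The median log2 fold of all genes moved from -0.79 to 0 with trimmed means and to -0.32 under bcl2fastq 1.8.4 or with a pseudocount of 10 CPM. No paired analysis was possible because the result comes from no test and the cell numbers name no animal. Levels under about 1 count per cell cannot be told from 0 at these depths.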
